A study of Arabidopsis thaliana with 12 samples.

Results

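Transcripts of late embryogenesis abundant (LEA) proteins are described here, as a set of 51 Arabidopsis thaliana genes out of 33602 genes with a value in the expression table. The members were taken by gene identifier from a list of LEA and dehydrin genes. No measured value picked single members, but the set was chosen with earlier results of these data known. The members fall into 18 LEA_4 genes, 10 dehydrins, 6 seed maturation proteins (SMP), 4 LEA_3 genes, 3 genes each of LEA_1, LEA_2 and PvLEA18, and 2 genes each of LEA_5 and AtM.

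LEA proteins accumulate in the embryo in the last phase of seed development, when storage is complete and the seed acquires the ability to survive drying, and many of them are also made in leaves and roots under drought, salt or cold. Most are very hydrophilic, have little fixed structure in solution and protect enzymes and membranes during water loss. In seeds their genes are switched on by abscisic acid (ABA) through bZIP transcription factors such as ABI5, which bind ABA-responsive elements (ABRE), together with the B3 factors ABI3, FUS3 and LEC2, which bind RY elements. The cold and drought factors of the CBF and DREB families bind a further element, the DRE.

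Messenger RNA was measured by paired-end sequencing of dissected torpedo-stage embryos from 4 crosses, all with a diploid wild-type Col-0 mother. In 3x nrpd1 the pollen came from a tetraploid nrpd1 plant (the mutant called pol4 in the labels, lacking the largest subunit of RNA polymerase IV), in 3x wt from a tetraploid Col-0 plant, in 2x nrpd1 from a diploid nrpd1 plant and in 2x wt from a diploid Col-0 plant. Each group has 3 libraries of about 150 embryos from separate crosses of distinct plants, and the tetraploid pollen donors had been made with colchicine. Triploid embryos were collected at 8 days after pollination and diploid embryos at 6 days, so ploidy and age cannot be told apart in any comparison of 3x with 2x embryos. The results text of the study gives the age of the diploid groups for 3x nrpd1, whereas the labels and methods give 8 days. The mutation entered through the pollen only, so every nrpd1 embryo carried a wild-type maternal copy. Seeds with a surplus of paternal genomes often fail in the endosperm and abort. The study reports far fewer aborted seeds with tetraploid nrpd1 pollen than with tetraploid Col-0 pollen. The groups ask how the embryo inside differs and whether paternal nrpd1 alters it.

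RPKM are reads scaled by gene length and library size, and the steps of the low values put 6851604 to 13602762 counted reads behind a library, so that 3 reads over 1000 bp equal 0.221 to 0.438 RPKM. These totals are inferred and lie below the mapped reads that the study lists for every library. At these totals only 30.6% to 40.8% of the low values of a library lay within 0.01 of a whole read. A read in the floors and bounds given here is therefore the smallest step of the values, which may stand for more than a single sequenced read. NRPD1 itself had 1.78 to 3.61 RPKM in 3x nrpd1, 1.46 to 2.17 in 3x wt, 2.82 to 4.48 in 2x nrpd1 and 2.42 to 2.69 in 2x wt, levels that overlap between 3x nrpd1 and 3x wt and that do not check the labels, since the maternal copy is intact. Replicate 3 of 3x nrpd1 stood apart. Its deviation from the mean of the other libraries of its group followed exon length with a Spearman correlation of -0.71 over 15188 genes. The other libraries of the group had 0.60 and 0.62, but replicate 3 is part of the mean they were set against, so these values partly mirror it. The main counts of members called, the ratio of summed levels and the marker sums that include replicate 3 are also given without it. A gene was tested where at least 3 of the libraries compared had at least 1 RPKM, on log2(RPKM + 0.5) with limma, and called where the log2 fold change was above 1 or below -1 at a Benjamini-Hochberg adjusted p under 0.05. In these bulk samples fewer cells of a type and less RNA per cell cannot be told apart.

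LEA transcripts were far more abundant in 3x wt embryos than in 2x wt embryos. Of the 51 members 31 could be tested in this comparison, and 22 of them were called higher and 2 lower in 3x wt, where 11.1% of the 17965 genes tested were called higher and 4.85% lower. The 20 members not tested were too low in both groups, and since a member low in 2x wt entered the test only where 3x wt was high, the count over tested members is a description. The median log2 fold change of the tested members was 2.45, beside -0.01 over all genes, and the range ran from -1.23 to 7.72. With no filter on low values the members' median was 1.36. It stayed at 2.45 with RAB18, which was at the floor in 2x wt, set to its bound. The change exceeded 4 on the log2 scale in 9 members, lay between 2 and 4 in 8 and between 1 and 2 in 5, while 6 members lay between 0 and 1 and 3 were negative. In 20 of the 22 members called higher, every 3x wt library lay above every 2x wt library, and LEA14 and AT2G23120 were the exceptions. The split of all calls moved with the scaling, with 69.5% of called genes higher under the median-ratio scaling used here, 56.6% for RPKM as deposited and 58.2% after quantile normalization, and the median of all genes moved to -0.16 and -0.11.

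**Figure D1:**
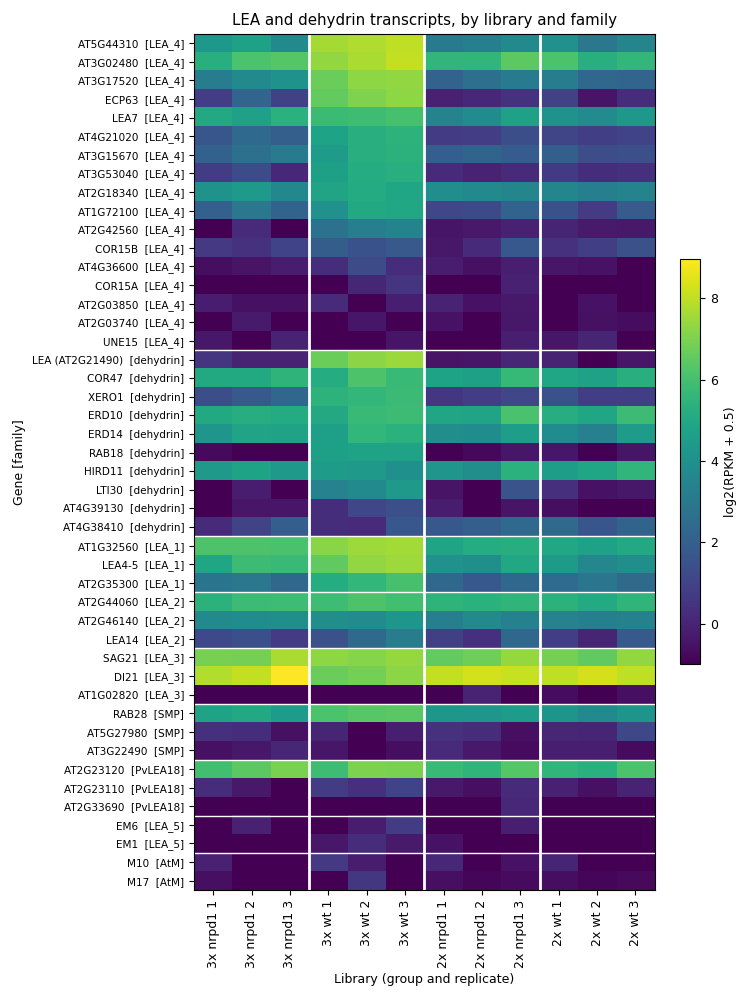
Level of the 46 members with a value above 0 in any library, as log2(RPKM + 0.5), with genes in rows by family and the 12 libraries in columns by group. The block of LEA_4, dehydrin and LEA_1 genes is brightest in the 3 columns of 3x wt, while DI21, at 101 to 150.1 RPKM in 3x wt, is darkest there.

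The promoters of 5 members are printed to show how the letters of the ABRE, RY and DRE cores lie in genes that behaved differently. Capitals mark the ABRE core ACGTG, the RY core CATGCA and the DRE core CCGAC on either strand, in the 300 bases before the annotated start of the gene, read 5′ to 3′ on the strand of the gene from the RefSeq annotation of build TAIR10.1. RAB18 (chr5:26519448-26519747, minus strand) and AT2G21490 (chr2:9207126-9207425, minus strand) had changes among the 3 largest. LTI30 (chr3:18940343-18940642, plus strand, reaching into the neighbouring gene) rose with no ABRE core in the window. EM6 (chr2:16780369-16780668, minus strand) was almost undetected, and DI21 (chr4:9027962-9028261, plus strand) fell.
RAB18: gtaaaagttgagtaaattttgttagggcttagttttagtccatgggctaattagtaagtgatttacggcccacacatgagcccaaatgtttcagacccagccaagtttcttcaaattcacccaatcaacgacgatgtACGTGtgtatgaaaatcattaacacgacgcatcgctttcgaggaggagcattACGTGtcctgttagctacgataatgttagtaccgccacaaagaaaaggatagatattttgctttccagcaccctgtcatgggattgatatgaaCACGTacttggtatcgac
AT2G21490: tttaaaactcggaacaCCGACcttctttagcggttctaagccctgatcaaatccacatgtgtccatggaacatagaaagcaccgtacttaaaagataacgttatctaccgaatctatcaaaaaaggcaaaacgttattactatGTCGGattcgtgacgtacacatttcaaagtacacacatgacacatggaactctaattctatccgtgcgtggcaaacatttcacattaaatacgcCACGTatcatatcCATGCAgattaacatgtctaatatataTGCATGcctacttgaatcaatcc
LTI30: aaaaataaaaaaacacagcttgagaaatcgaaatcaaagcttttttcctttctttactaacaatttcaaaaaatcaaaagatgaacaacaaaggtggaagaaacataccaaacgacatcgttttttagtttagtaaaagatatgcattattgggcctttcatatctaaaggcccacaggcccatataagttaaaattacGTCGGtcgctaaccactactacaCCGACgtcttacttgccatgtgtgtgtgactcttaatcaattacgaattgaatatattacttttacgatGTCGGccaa
EM6: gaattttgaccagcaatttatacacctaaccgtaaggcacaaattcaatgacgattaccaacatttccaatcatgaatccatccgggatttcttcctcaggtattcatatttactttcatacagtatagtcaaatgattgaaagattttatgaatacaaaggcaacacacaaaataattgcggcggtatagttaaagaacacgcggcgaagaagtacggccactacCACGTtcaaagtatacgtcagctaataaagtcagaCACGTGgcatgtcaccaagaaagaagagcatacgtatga
DI21: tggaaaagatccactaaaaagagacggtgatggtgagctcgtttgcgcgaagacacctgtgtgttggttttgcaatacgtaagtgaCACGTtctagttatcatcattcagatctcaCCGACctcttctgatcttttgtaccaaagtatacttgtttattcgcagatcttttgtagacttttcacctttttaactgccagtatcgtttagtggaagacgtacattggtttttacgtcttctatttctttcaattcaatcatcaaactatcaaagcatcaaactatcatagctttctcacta

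RAB18 held 3 ABRE cores between 18 and 163 bases before its start, and AT2G21490 held 1 ABRE core and 2 RY cores. LTI30 held 3 DRE cores. EM6, with at most 1.20 RPKM in any library, held 2 ABRE cores all the same. A match is a string of letters and not a shown binding site.

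Among the dehydrins, which carry the lysine-rich K-segment and bind membranes and proteins in drying cells, 9 of 10 were tested in 3x wt versus 2x wt and 5 were called higher and 1 lower, with a median of 1.47. AT2G21490, whose RefSeq symbol is LEA, showed the largest change of the whole set. It had 0.928, 0.485 and 0.499 RPKM in 3x nrpd1, 104, 149.6 and 177 in 3x wt, 0.212, 0.264 and 0.561 in 2x nrpd1 and 0.474, 0 and 0.253 in 2x wt. The 3x wt libraries lay far above all 9 others, and the log2 fold change of 3x wt over 2x wt was 7.72 ± 0.26 (adjusted p = 1.7e-07). RAB18, a classical marker of the ABA response, had 0.0975, 0 and 0 RPKM in 3x nrpd1, 24.8, 27.0 and 25.9 in 3x wt, 0, 0.0832 and 0.265 in 2x nrpd1 and 0.269, 0 and 0.240 in 2x wt. No 2x wt library held more than 3 reads of RAB18, so 3x wt was at least 87.4-fold higher than this floor of 3 reads per library, and the fitted value of 5.42 ± 0.20 (adjusted p = 2.0e-07) depends on the pseudocount. RAB18 overlaps the antisense gene AT5G66410, and the library kit did not mark strand, so reads of the 2 genes cannot be told apart.

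The cold-induced dehydrin LTI30 and its neighbour XERO1 lie 313 bases apart on chromosome 3 and rose together. LTI30 had 0, 0.348 and 0 RPKM in 3x nrpd1, 10.2, 12.9 and 20.3 in 3x wt, 0.228, 0 and 2.41 in 2x nrpd1 and 0.815, 0.197 and 0.272 in 2x wt, with every 3x wt library above every other library. XERO1 had 2.15, 2.96 and 4.35 RPKM in 3x nrpd1, 42.5, 47.4 and 54.5 in 3x wt, 0.971, 1.26 and 1.65 in 2x nrpd1 and 2.35, 1.32 and 1.32 in 2x wt. Its 3x wt libraries again stood clear of the other 9, and the changes of 3x wt over 2x wt were 4.12 ± 0.31 for LTI30 and 4.66 ± 0.20 (adjusted p = 5.0e-07) for XERO1. ERD14, an acidic dehydrin that is induced by dehydration in leaves, had 18.0, 27.4 and 26.1 RPKM in 3x nrpd1, 24.1, 47.4 and 40.8 in 3x wt, 14.5, 13.7 and 22.9 in 2x nrpd1 and 13.9, 9.64 and 21.6 in 2x wt. The 3x wt libraries of ERD14 lay above both diploid groups but overlapped 3x nrpd1, and the change over 2x wt was 1.47 ± 0.30.

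COR47 and ERD10, acidic dehydrins related to ERD14 that lie next to each other on chromosome 1, were not called. COR47 averaged 53.5 ± 18.6 RPKM in 3x wt libraries and 30.9 ± 6.54 in 2x wt, and ERD10 averaged 46.9 ± 13.2 and 40.3 ± 14.0 (SD, n = 3 each). The log2 fold changes were 0.90 ± 0.25 and 0.39 ± 0.26 (adjusted p = 0.233), and the libraries of the groups overlapped for both. COR47 was called at 1.20 without replicate 1 of 3x wt and at 1.03 without replicate 3 of 2x wt. HIRD11, a small metal-binding dehydrin, had 19.8, 26.7 and 19.7 RPKM in 3x nrpd1, 22.3, 19.9 and 15.6 in 3x wt, 17.8, 14.7 and 40.1 in 2x nrpd1 and 23.0, 29.4 and 46.5 in 2x wt. All 3x wt libraries lay below all 2x wt libraries, yet the change of -0.55 ± 0.21 (adjusted p = 0.0563) was not called. AT4G38410 was the dehydrin called lower, with 0.623, 1.56 and 3.42 RPKM in 3x nrpd1, 0.737, 0.635 and 2.74 in 3x wt, 2.82, 3.51 and 4.74 in 2x nrpd1 and 4.92, 2.66 and 3.98 in 2x wt. Replicate 3 of 3x wt at 2.74 RPKM overlapped the 2x wt range, and the change of -1.23 ± 0.40 (adjusted p = 0.0291) lost its call in 6 alternatives. The adjusted p was 0.0590 with no filter on low values, 0.0792 with all 12 libraries in the fit, 0.0835 and 0.102 without replicates 1 and 2 of 3x wt, and 0.103 and 0.0664 without replicates 1 and 3 of 2x wt. The remaining dehydrin, AT4G39130, was not tested and had at most 2.21 RPKM.

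LEA_4 is the largest family, with repeated lysine-rich motifs that form helices on drying. Of its 18 genes 12 were tested in 3x wt versus 2x wt, and 11 were called higher, with a median of 3.55. ECP63, first known from embryogenic carrot cells, had 1.25, 4.25 and 1.40 RPKM in 3x nrpd1, 95.3, 132 and 152 in 3x wt, 0.446, 0.600 and 0.883 in 2x nrpd1 and 1.39, 0.241 and 0.732 in 2x wt. All 3x wt libraries lay above all others, and the change over 2x wt was 6.82 ± 0.31 (adjusted p = 6.8e-07). AT3G53040 had 1.21, 1.97 and 0.592 RPKM in 3x nrpd1, 25.1, 35.0 and 38.9 in 3x wt, 0.648, 0.492 and 0.641 in 2x nrpd1 and 1.11, 0.747 and 0.772 in 2x wt, and AT3G17520 had 8.92, 12.6 and 16.2 RPKM in 3x nrpd1, 105, 154 and 160.1 in 3x wt, 3.86, 5.91 and 7.80 in 2x nrpd1 and 8.71, 4.54 and 4.31 in 2x wt. Both separated 3x wt from all other libraries, with changes over 2x wt of 4.72 ± 0.20 (adjusted p = 5.6e-07) and 4.66 ± 0.26 (adjusted p = 2.6e-06), which place them among the 6 largest.

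AT5G44310 was the most abundant member in 3x wt, at 9.94% of the summed RPKM of all members there. It had 19.1, 25.5 and 13.0 RPKM in 3x nrpd1, 194, 219 and 254 in 3x wt, 8.29, 9.29 and 13.2 in 2x nrpd1 and 16.0, 7.27 and 11.1 in 2x wt. AT4G21020 had 2.68, 4.84 and 3.54 RPKM in 3x nrpd1, 26.8, 38.3 and 42.9 in 3x wt, 1.17, 1.25 and 2.10 in 2x nrpd1 and 1.64, 1.30 and 1.50 in 2x wt. AT3G15670 had 3.80, 5.96 and 8.05 RPKM in 3x nrpd1, 22.0, 38.2 and 41.6 in 3x wt, 3.39, 4.11 and 3.22 in 2x nrpd1 and 3.57, 2.03 and 2.18 in 2x wt. In all 3 genes every 3x wt library lay above every other library, and the changes over 2x wt were 4.44 ± 0.23, 4.32 ± 0.19 and 3.61 ± 0.27. AT2G42560, the longest member at 635 codons, was near the floor outside 3x wt, with 0, 0.684 and 0 RPKM in 3x nrpd1, 6.28, 9.45 and 10.5 in 3x wt, 0.245, 0.304 and 0.431 in 2x nrpd1 and 0.510, 0.318 and 0.292 in 2x wt. AT1G72100 had 3.66, 7.14 and 4.05 RPKM in 3x nrpd1, 16.0, 33.0 and 30.8 in 3x wt, 1.67, 1.87 and 3.91 in 2x nrpd1 and 2.36, 1.21 and 3.08 in 2x wt. They changed by 3.49 ± 0.25 and 3.46 ± 0.32, again with no overlap.

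The other LEA_4 genes called higher were already expressed in diploid embryos, as was AT5G44310. AT2G18340 averaged 10.3 RPKM in 2x wt libraries and AT5G44310 averaged 11.4 RPKM. AT3G02480, the shortest member at 68 codons, had 38.8, 70.2 and 80.3 RPKM in 3x nrpd1, 163, 208 and 267 in 3x wt, 47.1, 46.0 and 86.9 in 2x nrpd1 and 69.2, 38.6 and 47.4 in 2x wt. LEA7 had 32.4, 25.3 and 40.3 RPKM in 3x nrpd1, 55.1, 57.1 and 66.8 in 3x wt, 10.6, 13.7 and 25.7 in 2x nrpd1 and 16.2, 13.6 and 19.3 in 2x wt, and AT2G18340 had 16.3, 19.7 and 11.9 RPKM in 3x nrpd1, 27.6, 34.6 and 28.1 in 3x wt, 14.2, 12.7 and 11.2 in 2x nrpd1 and 11.5, 9.07 and 10.4 in 2x wt. These genes kept their libraries apart between 3x wt and 2x wt, but with smaller changes of 2.21 ± 0.23, 2.00 ± 0.13 and 1.66 ± 0.13. LEA7, AT2G18340 and COR15B, like AT2G23120 among the PvLEA18 genes, overlap antisense genes, whose reads cannot be told apart from theirs. COR15B, a chloroplast protein that stabilizes membranes on freezing, was the tested LEA_4 gene that was not called. It averaged 2.86 ± 0.485 RPKM in 3x wt libraries and 1.47 ± 0.727 in 2x wt (SD, n = 3 each), with a change of 0.95 ± 0.27 (adjusted p = 0.0158). COR15B was called at 1.06 without replicate 2 of 3x wt and at 1.20 without replicate 3 of 2x wt. Its closely similar neighbour COR15A, whose reads could be divided with it in counting, had at most 0.91 RPKM in any library.

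All 3 LEA_1 genes, whose proteins accumulate in dry seeds and in stressed seedlings, were called higher in 3x wt, with a median of 3.16. LEA4-5 had 29.2, 55.6 and 51.5 RPKM in 3x nrpd1, 92.7, 161 and 179.5 in 3x wt, 16.0, 15.1 and 30.1 in 2x nrpd1 and 21.0, 11.6 and 14.8 in 2x wt. AT1G32560 had 72.7, 72.1 and 67.4 RPKM in 3x nrpd1, 146, 182 and 188 in 3x wt, 27.9, 35.7 and 36.7 in 2x nrpd1 and 31.1, 25.5 and 31.3 in 2x wt. AT2G35300 had 6.73, 7.22 and 4.57 RPKM in 3x nrpd1, 35.6, 48.1 and 65.9 in 3x wt, 4.56, 2.87 and 4.57 in 2x nrpd1 and 5.04, 6.94 and 5.00 in 2x wt. Each had its 3 highest libraries in 3x wt, and the changes over 2x wt were 3.30 ± 0.27, 2.69 ± 0.13 and 3.16 ± 0.23. In AT1G32560 all 3x nrpd1 libraries also lay above all libraries of both diploid groups.

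Of the 6 SMP genes only RAB28, an ABA-induced protein of the embryo, was tested. It had 26.1, 31.8 and 21.8 RPKM in 3x nrpd1, 69.0, 81.7 and 84.3 in 3x wt, 18.6, 17.8 and 22.2 in 2x nrpd1 and 17.2, 12.7 and 17.4 in 2x wt, a pattern with 3x wt far above the rest and a change over 2x wt of 2.45 ± 0.13 (adjusted p = 2.3e-06). The other SMP genes were ECP31, AT5G53260 and AT5G53270, listed at 0 in all 12 libraries, and AT3G22490 and AT5G27980, with at most 0.623 and 1.72 RPKM. LEA14, an LEA_2 protein that unlike most of the family folds into a stable structure, had 1.78, 2.23 and 1.15 RPKM in 3x nrpd1, 2.28, 4.99 and 8.63 in 3x wt, 1.34, 0.809 and 4.67 in 2x nrpd1 and 1.31, 0.528 and 3.06 in 2x wt. Its groups overlapped between 3x wt and 2x wt, and the change was 1.60 ± 0.50 (adjusted p = 0.0236). The call was lost with an adjusted p of 0.0524 without the filter, 0.0676 and 0.0884 without replicates 2 and 3 of 3x wt, and 0.0595 and 0.0811 without replicates 1 and 2 of 2x wt. The other LEA_2 genes, AT2G44060 and AT2G46140, were not called, with changes of 0.84 ± 0.13 and 0.79 ± 0.13. AT2G23120, the PvLEA18 gene with a clear level, had 60.3, 87.0 and 123 RPKM in 3x nrpd1, 58.2, 128 and 122 in 3x wt, 51.3, 45.1 and 81.0 in 2x nrpd1 and 46.8, 39.3 and 70.7 in 2x wt. Replicate 1 of 3x wt lay among the 2x wt libraries, and the change was 1.09 ± 0.30 (adjusted p = 0.0146). The call was lost on size for RPKM as deposited and after quantile normalization, and on size and adjusted p together, at adjusted p of 0.0572, 0.0560 and 0.0533, without replicates 2 and 3 of 3x wt and replicate 2 of 2x wt.

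The LEA_3 genes held the member that fell most clearly. DI21, named for its induction by drought, was the most abundant member in every group but 3x wt. It had 222, 263 and 497 RPKM in 3x nrpd1, 101, 118 and 150.1 in 3x wt, 266, 307 and 281 in 2x nrpd1 and 258, 318 and 259.5 in 2x wt. Every 3x wt library lay below every other library, and the change over 2x wt was -1.02 ± 0.16 (adjusted p = 7.8e-04). Its size was so near the threshold that the call was lost without replicate 1 of 3x wt or replicate 2 of 2x wt, although the adjusted p was then 0.00148 and 0.00273. SAG21, a mitochondrial protein linked to senescence and oxidative stress, was second to DI21 in the other 3 groups and had 120.4, 117 and 209 RPKM in 3x nrpd1, 152, 142 and 166 in 3x wt, 94.6, 108 and 167 in 2x nrpd1 and 117, 92.2 and 160.4 in 2x wt. The 4 groups overlapped, and its change over 2x wt of 0.51 ± 0.16 (adjusted p = 0.0220) was below the threshold on size. AT1G02820 had at most 0.478 RPKM, and AT3G53770 was listed at 0 in every library.

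The latest markers of seed maturation were not expressed to any extent. The Em genes EM1 and EM6, which make up the LEA_5 family and are among the most abundant messages of the mature embryo, had at most 0.733 and 1.20 RPKM, both in 3x wt libraries, and were listed at 0 in all 2x wt libraries. The AtM genes M10 and M17 had at most 1.06 and 1.02 RPKM, also in 3x wt. Altogether 20 members were not tested in 3x wt versus 2x wt, of which 5 were listed at 0 in all 12 libraries and the other 15 reached at most 2.21 RPKM. The number of members with at least 10 RPKM in every library of a group was 16 in 3x nrpd1, 27 in 3x wt, 14 in 2x nrpd1 and 12 in 2x wt.

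**Figure D2:**
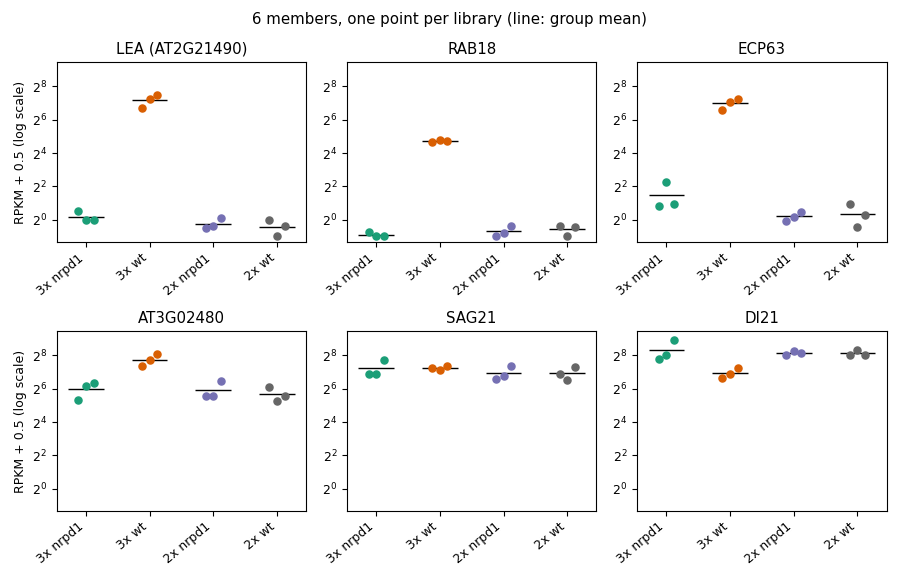
RPKM + 0.5 on a log axis for 6 members, with a point for each library and a line at the group mean. AT2G21490, RAB18 and ECP63 stand high in 3x wt only, AT3G02480 is higher in 3x wt from an expressed level in the other groups, SAG21 overlaps in all 4 groups and DI21 is lowest in 3x wt.

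In 3x nrpd1 embryos the LEA transcripts were lower than in 3x wt embryos. Of 31 members tested, 17 were called lower and 0 higher, with 22 at an unadjusted p under 0.05, where 6.50% of the 17913 genes tested were called lower and 3.18% higher. The comparison has the 3x wt libraries in common with the comparison above, so the values stand here on their own and are not set against it. The median log2 fold change was -1.54, beside -0.01 for all genes, and the range ran from -6.95 to 1.35. With no filter it was -0.96. Members low in 3x nrpd1 entered the test through 3x wt, so the count and the median are descriptions here as well. Without replicate 3 of 3x nrpd1, 19 members were called lower and the median was -1.71. Leaving out replicate 2 or replicate 3 of 3x wt brought the count to 10 and 11, with medians of -1.19 and -1.09. In both of these, 4 of the 17 members (AT2G21490, AT2G42560, LTI30 and RAB18), all under 1 RPKM in every 3x nrpd1 library, no longer met the filter and were not tested.

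By family the calls were 4 of 9 dehydrins, 9 of 12 LEA_4 genes, 3 of 3 LEA_1 genes and RAB28, with no call among LEA_2, LEA_3 or PvLEA18. AT2G21490 had the most negative log2 fold change of 3x nrpd1 over 3x wt, -6.95 ± 0.25 (adjusted p = 1.2e-05). RAB18 had at most 1 read in any 3x nrpd1 library, so 3x nrpd1 was at least 63.5-fold lower than 3x wt, and LTI30, with at most 2 reads, was at least 31.1-fold lower. ECP63 changed by -5.62 ± 0.36 (adjusted p = 1.5e-04), AT3G53040 by -4.31 ± 0.29 and XERO1 by -3.75 ± 0.31. The smallest changes called were those of AT1G32560 at -1.25 ± 0.19 (adjusted p = 0.00515) and RAB28 at -1.54 ± 0.17 (adjusted p = 0.00138). Both kept 3x nrpd1 and 3x wt apart in every library. Without replicate 2 of 3x wt the adjusted p of LEA4-5, AT3G02480 and AT1G32560 was 0.122, 0.0918 and 0.0515. Without replicate 3 of 3x wt it was 0.121 for LEA4-5 and 0.0988 for AT3G02480, and without replicate 1 of 3x nrpd1 it was 0.0509 for LEA4-5.

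DI21 had the highest value, 1.35 ± 0.40 (adjusted p = 0.0574), above 1 in size but short of the threshold on p. Replicate 3 of 3x nrpd1 stood highest at 497 RPKM, and without it the change was 0.88 with an adjusted p of 0.00765. DI21 was called higher in 6 alternatives, among them RPKM as deposited at 1.34 and the fit without replicate 1 of 3x nrpd1 at 1.66. LEA14, COR15B, LEA7 and AT2G18340 changed by -1.25 ± 0.43, -1.03 ± 0.30, -0.86 ± 0.27 and -0.90 ± 0.18 without a call. COR15B and LEA7 were called lower without replicate 3 of 3x nrpd1, at -1.29 and -1.15, and LEA14 without replicate 1 of 3x wt, at -1.72. In AT2G23120, SAG21 and AT2G46140 the change was smaller than its standard error, at -0.14 ± 0.42, -0.08 ± 0.32 and -0.12 ± 0.22.

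The difference between the changes tests whether 3x embryos differed from 2x embryos by another amount in wt than in nrpd1, as the log2 fold change of 3x wt over 2x wt minus that of 3x nrpd1 over 2x nrpd1. Over all 12 libraries 31 members were tested, and 18 had a positive difference and 0 a negative one that was called, with 19 at an unadjusted p under 0.05, where 5.32% of the 18561 genes tested were called positive and 2.77% negative. The median difference was 1.90, beside 0.02 over all genes, and 1.09 with no filter. Without replicate 3 of 3x nrpd1 the count was 18 and the median 1.88. AT2G21490, AT2G42560 and RAB18 entered this test through the 3x wt libraries alone, so the count and the median describe the members tested. Without replicate 1, 2 or 3 of 3x wt these 3 were not tested, and 15, 13 and 13 members had a called positive difference. With a mean of at least 5 RPKM, AT2G42560 and LTI30 were not tested and 16 were called. AT2G21490 differed by 7.22 ± 0.41 (adjusted p = 1.5e-06), RAB18 by 5.60 ± 0.35 (adjusted p = 2.5e-06) and ECP63 by 5.59 ± 0.54 (adjusted p = 9.2e-05). Among the other dehydrins LTI30 differed by 4.86 ± 0.76 (adjusted p = 0.00190) and XERO1 by 3.55 ± 0.41 (adjusted p = 2.9e-04).

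The LEA_4 genes made up 10 of the 18. The differences were 4.05 ± 0.37 (adjusted p = 6.2e-05) for AT3G53040, 3.78 ± 0.48 (adjusted p = 5.5e-04) for AT2G42560, 3.49 ± 0.49 (adjusted p = 9.8e-04) for AT3G17520, 3.46 ± 0.36 (adjusted p = 1.5e-04) for AT5G44310 and 3.15 ± 0.37 (adjusted p = 2.7e-04) for AT4G21020. They were 2.87 ± 0.47 (adjusted p = 0.00254) for AT3G15670, 2.46 ± 0.52 (adjusted p = 0.0105) for AT1G72100, 2.00 ± 0.50 (adjusted p = 0.0225) for AT3G02480 and 1.23 ± 0.22 (adjusted p = 0.00382) for AT2G18340. The LEA_1 genes AT2G35300, LEA4-5 and AT1G32560 differed by 2.47 ± 0.34 (adjusted p = 9.8e-04), 2.02 ± 0.51 (adjusted p = 0.0244) and 1.48 ± 0.22 (adjusted p = 0.00140), and RAB28 by 1.90 ± 0.21 (adjusted p = 2.0e-04). LEA4-5 and AT3G02480 lost the call when replicate 2 or 3 of 3x wt, replicate 3 of 2x nrpd1 or replicate 2 or 3 of 2x wt was left out. The adjusted p was then 0.0557 to 0.0767 for LEA4-5 and 0.0537 to 0.0727 for AT3G02480. LEA7, ERD14, LEA14 and AT2G23120 did not pass, at 0.85 ± 0.42, 0.85 ± 0.46, 1.60 ± 0.78 and 0.37 ± 0.54. DI21 was the lowest at -1.27 ± 0.45 (adjusted p = 0.0870), and without replicate 1 of 3x nrpd1 it was called at -1.57.

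Between 3x nrpd1 and 2x nrpd1, a comparison that shares no library with 3x wt versus 2x wt, few genes of any kind were called. Of 17585 genes tested 0.904% were higher and 0.0171% lower in 3x nrpd1, and of 26 members tested 1 was called higher and 0 lower. The call was AT1G32560 at 1.21 ± 0.17 (adjusted p = 0.0229), and it was lost, with 0 members called, when any library other than replicate 3 of 3x nrpd1 was left out, at adjusted p of 0.102 to 0.130, and when the exon-length trend was removed. The members lay above 0 all the same in 23 of 26 cases, with a median of 0.58 beside -0.02 over all genes, and 13 had an unadjusted p under 0.05, as did 1910 genes in all. LEA4-5 reached 1.28 ± 0.36 (adjusted p = 0.213), ECP63 1.23 ± 0.41, AT3G17520 1.17 ± 0.35, AT4G21020 1.16 ± 0.30 and XERO1 1.10 ± 0.35. In AT1G32560, ECP63, AT3G17520, AT4G21020, XERO1 and AT2G46140 every 3x nrpd1 library lay above every 2x nrpd1 library. Without replicate 3 of 3x nrpd1 the median was 0.42 and 2 members were called, AT1G32560 at 1.14 and AT5G44310 at 1.12.

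Between 2x nrpd1 and 2x wt no gene was called by limma, which puts the background at 0% in both directions. Of 25 members tested 0 were called and 2 had an unadjusted p under 0.05, as did 984 of the 17472 genes tested, and the median of the members was 0.12. The values ran from -0.49 for HIRD11 to 0.44 for AT3G15670. These diploid embryos were of the same age, so paternal nrpd1 was the labelled difference between the groups.

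**Figure D3:**
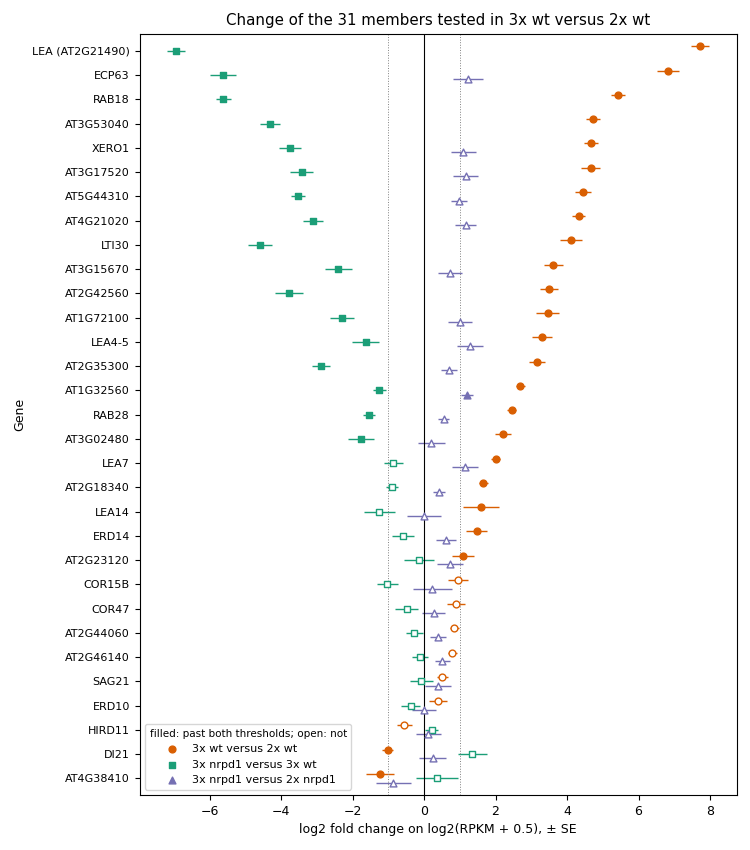
Log2 fold change ± SE on log2(RPKM + 0.5) of the 31 members tested in 3x wt versus 2x wt, with filled symbols where a change passed both thresholds and dotted lines at -1 and 1. Circles for 3x wt versus 2x wt reach 7.72, squares for 3x nrpd1 versus 3x wt reach -6.95, and triangles for 3x nrpd1 versus 2x nrpd1 stay between -0.86 and 1.28.

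The summed RPKM of the 51 members showed how much of the message pool they took. It was 832, 1016 and 1364 RPKM in 3x nrpd1, 1769, 2349 and 2593 in 3x wt, 721, 771 and 1036 in 2x nrpd1 and 796, 729 and 891 in 2x wt. In the 3x wt libraries this came to 0.240% to 0.345% of all RPKM, and in the other 9 libraries to 0.0995% to 0.157%. The sum averaged 2237 ± 423 RPKM in 3x wt libraries and 805 ± 81.5 in 2x wt (SD, n = 3 each), a ratio of 2.78, and 1071 ± 270.0 in 3x nrpd1 and 843 ± 169 in 2x nrpd1, a ratio of 1.27 that was 1.10 without replicate 3 of 3x nrpd1. The 3x wt libraries did not overlap any other group, for which a two-sided exact permutation test of 3 libraries against 3 gives p = 0.1, the smallest it can give. For 3x nrpd1 against 2x nrpd1 the exact p was 0.3 and for 2x nrpd1 against 2x wt 0.9.

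LEA_4 genes had a summed 130.0, 179.6 and 182 RPKM in 3x nrpd1, 741, 964 and 1098 in 3x wt, 92.8, 97.3 and 161 in 2x nrpd1 and 134, 81.3 and 103 in 2x wt, a ratio of 3x wt to 2x wt of 8.80. The LEA_1 sum had a ratio of 7.21 and the dehydrin sum of 3.12. The LEA_3 sum, carried by DI21 and SAG21, ran the other way at 0.687. In 2x wt the 3 most abundant members, DI21, SAG21 and AT2G23120, held 56.4% of the summed RPKM, whereas in 3x wt the first 3, AT5G44310, AT3G02480 and AT1G32560, held 27.1%. In replicate 3 of 3x nrpd1, with a sum of 1364 RPKM, LEA_3 held 706 RPKM, against 342 and 379.9 RPKM in the other libraries of the group.

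**Figure D4:**
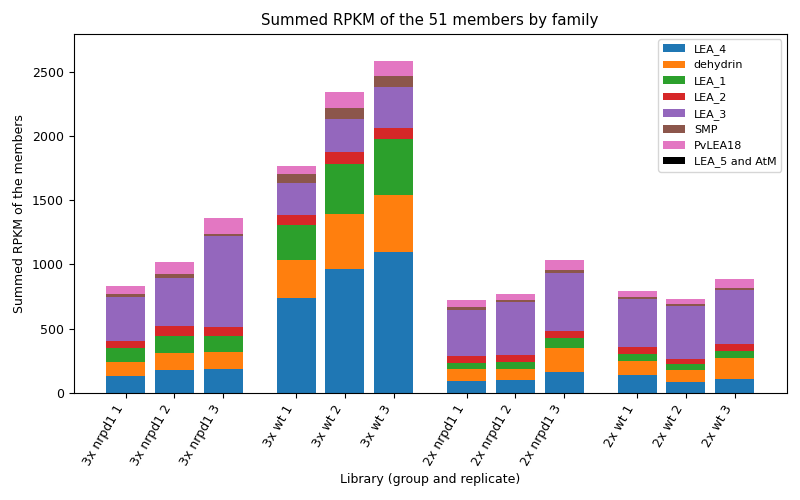
Summed RPKM of the 51 members in each library, with the colours of a bar giving the families. The 3x wt bars reach 1769 to 2593 RPKM and are mostly LEA_4, dehydrin and LEA_1, while LEA_3 is the largest block in the bars of the other groups, all between 721 and 1364 RPKM.

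Factors known to act on LEA genes in seeds were read as a list. All 22 regulators listed were tested, and 5 were called higher and 1 lower in 3x wt versus 2x wt. Of the 17965 genes tested there, 11.1% were called higher and 4.85% lower, so the single lower call is near the share of all genes. ABI5, the bZIP factor that binds LEA promoters in the maturing seed, had 9.47, 14.1 and 6.63 RPKM in 3x nrpd1, 31.5, 50.9 and 52.6 in 3x wt, 8.36, 7.61 and 19.9 in 2x nrpd1 and 14.0, 9.11 and 16.0 in 2x wt. Its 3x wt libraries stood above all others, with a change of 1.91 ± 0.24 (adjusted p = 1.9e-04) over 2x wt. L1L, a LEC1-like subunit of the NF-Y complex, the bZIP factors EEL and BZIP67 and the ABRE-binding factor ABF4 changed by 1.85 ± 0.14, 1.36 ± 0.12, 1.39 ± 0.16 and 1.39 ± 0.10. CBF2, a DRE-binding cold factor, changed by -1.62 ± 0.29. ABI3 had 185, 169 and 31.5 RPKM in 3x nrpd1, 183, 156 and 147 in 3x wt, 162, 166 and 138 in 2x nrpd1 and 153, 149 and 157 in 2x wt, and 3x nrpd1 replicate 3 was the library that stood apart.

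FUS3 and the master regulators LEC1 and LEC2 were not called in 3x wt versus 2x wt, at 0.79 ± 0.14 (adjusted p = 0.00123), -0.99 ± 0.18 (adjusted p = 0.00185) and -0.92 ± 0.17 (adjusted p = 0.00172), all with a size under 1. In 3x nrpd1 versus 3x wt, ABI5, ABF1, ABF3 and ABF4 were called lower, at -2.12 ± 0.27, -1.64 ± 0.26, -1.16 ± 0.25 and -1.62 ± 0.17, and LEC1, CBF1 and CBF2 higher, at 1.27 ± 0.20, 1.79 ± 0.31 and 2.39 ± 0.46. Without replicate 3 of 3x wt these counts were 2 lower and 0 higher, and without replicate 3 of 3x nrpd1 they were 4 and 4. With all libraries of the comparison, 6.50% of all genes tested were called lower and 3.18% higher. The difference between the changes was called for ABI5 at 1.95 ± 0.48 and ABF4 at 1.60 ± 0.22, and on the negative side for CBF1 at -1.71 ± 0.38 and CBF2 at -2.39 ± 0.52. Without replicate 2 or 3 of 3x wt or replicate 2 of 2x wt, 1 of the 2 positive calls was left. Over all genes tested on the 12 libraries, 5.32% had a called positive difference and 2.77% a negative one. ABI3 did not pass in any of these comparisons, with 0.24 ± 0.08 (adjusted p = 0.0367) in 3x wt versus 2x wt.

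Of 18 other genes of dehydration and late seed development, 14 were tested in 3x wt versus 2x wt and 11 were called higher, with a median of 2.03. Of all genes tested there, 11.1% were called higher. Genes of this list low in 2x wt entered the test through 3x wt, and the list was chosen with earlier results known. The count and the median are therefore descriptions. PER1, a seed peroxiredoxin, had 2.36, 2.47 and 2.40 RPKM in 3x nrpd1, 157, 248 and 276 in 3x wt, 0.270, 0.969 and 1.66 in 2x nrpd1 and 0.643, 0.389 and 1.29 in 2x wt, a change over 2x wt of 7.63 ± 0.27 (adjusted p = 1.7e-07) with no overlap. The ABA- and drought-induced genes KIN2, TSPO, HB7, RD22, RD29B and RD29A changed by 3.03, 2.75, 2.32, 2.27, 2.16 and 1.83. GOLS1, a galactinol synthase of the raffinose pathway, HAI1, a phosphatase of ABA signalling, ERD1, a chloroplast protease subunit, and AFP1, which binds ABI5, changed by 2.18, 1.91, 1.24 and 1.17. P5CS1, the first enzyme of proline synthesis, had -0.94 and was not called, with its 3x wt libraries at 32.5 to 35.8 RPKM against 67.9 to 79.2 RPKM in 2x wt. KIN2 is nearly identical to its neighbour KIN1, so their reads could be divided in counting. In 3x nrpd1 versus 3x wt 15 were tested and 8 called lower, with a median of -1.64, where 6.50% of all genes tested were called lower. Genes low in 3x nrpd1 entered through 3x wt, so these values are descriptions too. The count called lower was 4 without replicate 2 or replicate 3 of 3x wt and 9 without replicate 3 of 3x nrpd1.

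Markers of other seed tissues were read beside these results. The 14 embryo markers summed to 171 to 408 RPKM in 3x nrpd1, 388 to 433 in 3x wt, 341 to 415 in 2x nrpd1 and 365 to 397 in 2x wt. The 17 endosperm markers summed to 28.2 to 89.9 RPKM in 3x nrpd1, 89.4 to 98.3 in 3x wt, 62.6 to 75.9 in 2x nrpd1 and 62.1 to 73.5 in 2x wt, mostly SUC5, while 11 of the 17 were under 1 RPKM in every 3x wt library and the defining endosperm genes FWA and AGL62 were under 1 RPKM in every library. Of 6 endosperm markers tested in 3x wt versus 2x wt, PHE1, a MADS-box gene expressed from the paternal genome, was called higher and ALE1, a subtilisin-like protease gene, lower. PHE1 had 1.03, 3.70 and 0.994 RPKM in 3x nrpd1, 1.22, 1.96 and 1.56 in 3x wt, 0, 0 and 0 in 2x nrpd1 and 0, 0 and 0 in 2x wt, and was listed at 0 in every 2x library. ALE1 had 3.24, 3.59 and 1.11 RPKM in 3x nrpd1, 0.968, 0.167 and 0.0554 in 3x wt, 2.56, 1.28 and 1.73 in 2x nrpd1 and 1.86, 2.13 and 3.05 in 2x wt, and its 3x wt libraries lay below all others. In 3x nrpd1 versus 3x wt, 7 were tested, and ALE1 at 1.83 ± 0.45 (adjusted p = 0.0330) and ZOU, a bHLH factor gene of the endosperm, at 1.74 ± 0.36 (adjusted p = 0.0183) were called higher. The embryo marker WOX5 was called lower there, at -1.01 ± 0.23 (adjusted p = 0.0229). The 13 seed coat markers summed to 120.4 to 198 RPKM in 3x nrpd1, 284 to 345 in 3x wt, 184 to 206 in 2x nrpd1 and 170.1 to 183 in 2x wt, mostly SBT1.7, and BAN, TT10 and SBT1.7 were called higher in 3x wt versus 2x wt and lower in 3x nrpd1 versus 3x wt. BAN, at 3.70 to 5.84 RPKM in the 3x wt libraries and 0.260 to 0.647 in those of 2x wt, and TT10 moved in the direction of most LEA genes tested. Both were under 1 RPKM in every 2x wt library and entered that test through 3x wt. TT12 went the other way without a call, at -0.97 ± 0.30 in 3x wt versus 2x wt and 0.99 ± 0.34 in 3x nrpd1 versus 3x wt. MUM4, TTG2 and FLY1 were not called either, at 0.15, -0.37 and -0.02 in 3x wt versus 2x wt. The lowest sum of each list was that of replicate 3 of 3x nrpd1, and without it the 3x nrpd1 sums were 390.3 to 408 RPKM for embryo, 79.9 to 89.9 for endosperm and 179.8 to 198 for seed coat markers. The endosperm genes AGL36 and AGL90 were listed at 0 in all 12 libraries. The part of these markers in the result was not tested.

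An ABRE core lay within 300 bases of the start in 20 of the 22 members called higher in 3x wt, in 4 of the 9 tested members not called higher and in 13 of the 20 not tested, against 25.6% of all 27443 promoters searched. At least 2 were present in 16 of the 22 members called higher, against 5.86% of all promoters. AT3G53040 held 5, and LEA7 and AT2G42560 were among those with 4. The exceptions among the 22 were LTI30 and AT2G23120. A DRE core was present in 13 of the 22, against 13.9% of all promoters, and an RY core in 6 of the 22, against 10.3%. Of the 9 tested members not called higher, COR47, ERD10, COR15B, AT2G44060 and SAG21 held no ABRE core, and HIRD11, AT2G46140, DI21 and AT4G38410 did. The window depends on where the annotation puts the start. It reached into the neighbouring gene beyond 7 bases for COR15B and beyond 29 bases for AT2G44060, so most of those 2 windows is not sequence between genes. Windows of some members called higher reached into a neighbour too, among them AT1G32560 and AT2G18340, each beyond 189 bases. These shares are descriptions of letters in a window, with no test, and the members share ancestry within families.

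**Figure D5:**
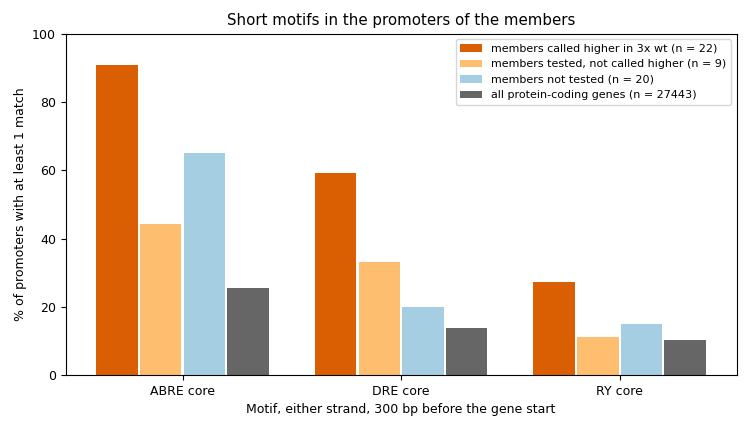
Share of promoters with at least 1 ABRE, DRE or RY core on either strand in the 300 bp before the gene start, in % of the members called higher in 3x wt, the members tested and not called higher, the members not tested and all protein-coding genes. The ABRE core is in 90.9%, 44.4%, 65.0% and 25.6% of them.

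As a class the members encode small and hydrophilic proteins. The median length was 176 codons, beside 348 over all 27390 protein-coding genes, and 25 of the 51 had a mean Kyte-Doolittle hydropathy under -1, against 3.52% of all genes. No cysteine codon was present in 31 members and no tryptophan codon in 29. HIRD11 was the most hydrophilic at -1.87 with 22.4% lysine, and RAB18 the richest in glycine at 33.9%. Of the 9 dehydrins tested in 3x wt versus 2x wt, the 4 least hydrophilic were AT2G21490 at -1.03, XERO1 at -1.05, LTI30 at -1.17 and RAB18 at -1.18, and they had the 4 largest changes. The 2 most hydrophilic, AT4G38410 at -1.63 and HIRD11 at -1.87, had the negative values. This is a description of 9 related genes, with no test, and the tested LEA_4 genes did not follow the same order. The least hydrophilic of those, AT1G72100 at -0.46 and COR15B at -0.54, changed by 3.46 and 0.95. The most hydrophilic, AT5G44310 at -1.38, changed by 4.44. The LEA_2 genes, with a median hydropathy of 0.06, were the least hydrophilic family.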

How the data were processed

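Poly(A) RNA of 12 embryo libraries in 4 groups was sequenced. The authors used Trimmomatic for trimming and TopHat2 for mapping to TAIR10 masked for rRNA genes, GFOLD for counting and DESeq2 for testing. The values deposited by the authors are RPKM per gene and library, with no pooling of replicates, and how they were scaled is not given in the sources used here. Reads behind each library were inferred from the steps of the low RPKM values. Values of all 46 members above 0 came out as whole reads within 0.02 reads plus 2e-05 of the count. The gene length of each member was searched for until this held. For the members above 0 not tested in 3x wt versus 2x wt, 3 to 17 lengths served. The floors (3 reads per library) cover counting error only. Values after ± are the standard error of the limma fit for log2 fold changes and the SD over libraries for mean RPKM, so they include variation between replicates.

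RPKM were tested as log2(RPKM + 0.5) with limma 3.58.1 in R 4.3.3, two-sided, with a variance trend and Benjamini-Hochberg adjustment over all genes tested. Scaling used each library's median ratio to the geometric mean of the libraries fitted, and a gene needed 1 RPKM or more in 3 of them. Each comparison was fitted on its own 6 libraries, and the difference between changes on all 12. Sums were compared by exact permutation. Fits were tested on simulated data.

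Promoters, positions and codons came from the RefSeq annotation of TAIR10.1 (Python 3.11.15, pandas 2.3.3). The members, the lists and the tests were chosen with earlier results of these data known. Every member may be named. Values per library are given for members called in 3x wt versus 2x wt or 3x nrpd1 versus 3x wt, the highest in 2x wt and those that fell, and full statistics for the 5 largest and 3 smallest changes and for members that differ between the changes. Of the other lists, genes called and ABI3, FUS3, LEC1, LEC2 and ABI5 are named, and P5CS1 was singled out after its values were seen. The alternatives changed the pseudocount to 0.1 or 1, the filter to none or to a mean of 5 RPKM, and the scaling to none or quantile normalization, or used all 12 libraries in one fit, a replicate block, robust moderation, removal of the exon-length trend and each library left out. The LEA_5, AtM and 5 of the SMP genes were not tested for low values.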

Additional observations from a re-analysis of the deposited data

Results flagged for a closer look

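In 18 members the change of 3x wt over 2x wt differed from that of 3x nrpd1 over 2x nrpd1, by a test of the difference itself in limma with adjusted p under 0.05. On the log2 scale the difference was 7.22 for AT2G21490, 5.60 for RAB18, 5.59 for ECP63, 4.86 for LTI30, 4.05 for AT3G53040, 3.78 for AT2G42560, 3.55 for XERO1, 3.49 for AT3G17520 and 3.46 for AT5G44310. It was 3.15 for AT4G21020, 2.87 for AT3G15670, 2.47 for AT2G35300, 2.46 for AT1G72100, 2.02 for LEA4-5, 2.00 for AT3G02480, 1.90 for RAB28, 1.48 for AT1G32560 and 1.23 for AT2G18340. In all 18 the larger change was the one in wt. With 3 libraries a group, no test for a single outlying library was made.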

How the results depend on the processing

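The members called higher in 3x wt versus 2x wt numbered 20 to 23 under the alternatives and 16 to 24 with a library left out, against 22 as reported. Leaving out a 3x wt library took AT2G21490, AT2G42560, LTI30 and RAB18 below the filter, so these 4 were then not tested. The members called lower there numbered 1, DI21, with no filter, with a mean of at least 5 RPKM and with all 12 libraries in the fit, and 0 to 2 with a library left out. With no filter the medians of the members were 1.36 in 3x wt versus 2x wt, -0.96 in 3x nrpd1 versus 3x wt, 0.24 in 3x nrpd1 versus 2x nrpd1 and 1.09 for the difference between the changes, since genes at 0 enter. With a library left out the medians ran from 1.92 to 2.51, -1.71 to -1.09, 0.42 to 0.66 and 1.34 to 1.99. In 3x nrpd1 versus 3x wt the members called lower numbered 10 to 19 with a library left out, and those called higher 0 to 1. The member called higher, DI21, was 1 for RPKM as deposited, after quantile normalization, with all 12 libraries, with a replicate block and with the exon-length trend removed. In 3x nrpd1 versus 2x nrpd1 2 members were called higher with all 12 libraries and 0 with the length trend removed, and 0 to 2 with a library left out. For the difference between the changes DI21 made 1 negative call for RPKM as deposited, after quantile normalization and with the length trend removed, and 0 to 1 with a library left out.

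In 3x wt versus 2x wt 3 regulators were called lower for RPKM as deposited and 2 each after quantile normalization and with the length trend removed, and 1 to 2 with a library left out. In 3x nrpd1 versus 2x nrpd1, all 12 libraries or removal of the length trend gave 1 regulator called higher. With a library left out 0 to 4 regulators were called higher and 2 to 5 lower in 3x nrpd1 versus 3x wt, and 1 to 3 had a positive difference between the changes. Of the other dehydration genes a mean of at least 5 RPKM left 7 called higher in 3x wt versus 2x wt, and 1 was called lower for RPKM as deposited and after quantile normalization. With that mean 4 were called lower in 3x nrpd1 versus 3x wt and 3 differed between the changes, and with a library left out these counts were 4 to 10 and 4 to 8. The causes were not tested.

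Whether replicate numbers in the labels pair the libraries was not settled. The correlations of same-numbered deviations ran from -0.15 to 0.29. With the replicate block 22 members were called higher in 3x wt versus 2x wt and 17 lower in 3x nrpd1 versus 3x wt, and 18 differed between the changes. Every library correlated best with its own number in 3x nrpd1 versus 3x wt only (6 of 6), which is a weak hint from the data. The correlations there were only 0.09, 0.05 and 0.04, against -0.06 to -0.00 for the other pairs. The libraries that correlated best with their own number were 5 in 2x nrpd1 versus 2x wt, 4 in 3x nrpd1 versus 2x nrpd1 and 2 in 3x wt versus 2x wt. Of 1043 values under the alternatives, 40 lost a call and 0 reversed. They are values of members called as reported, with HIRD11 in 3x wt versus 2x wt and DI21 in 3x nrpd1 versus 3x wt. Settings in which a called member was no longer tested are in neither number. With a mean of at least 5 RPKM these were LEA14, AT2G42560 and AT4G38410 in 3x wt versus 2x wt. They were AT2G42560 in 3x nrpd1 versus 3x wt, and AT2G42560 and LTI30 for the difference. Without any 1 of the 3x wt libraries they were 4, 4 and 3 members. Over all members there were 30 gained calls in 10 members, of which 10 calls were of DI21 and 5 of members not tested as reported. Members under 1 RPKM in every library were left out by the filter. With 3 libraries a group and 3 reads worth up to 0.438 RPKM on 1000 bp, changes among them are poorly resolved at this depth. With no filter EM1, at most 0.733 RPKM, had a difference between the changes of 1.07 (limma, adjusted p = 0.0242).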
